A study of Homo sapiens with 24 samples.

Results

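Receptor tyrosine kinases are membrane proteins that bind growth factors outside the cell and phosphorylate tyrosines inside it. The receptors described here are EGFR, ERBB2, PDGFRA, PDGFRB, MET, AXL, FGFR1, KIT, EPHA2 and IGF1R, chosen by name as receptors that drive or mark glioma. They were found by taking every gene spot of the scanner files that carries one of these names, which gave 21 probes for 10 of the 30982 gene names on the array.

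The study asked how proton therapy (PT) and Si306, an inhibitor of SRC family kinases, change transcription in U87 MG, an established human glioblastoma line. RNA was collected 24 h after treatment, and treated RNA (Cy5, red) was hybridised against control RNA (Cy3, green) on 2-colour Agilent 4x44K arrays. Cells given 2 Gy PT and cells given 10 Gy PT were each compared with untreated cells. Cells given 10 µM Si306 with 2 Gy or with 10 Gy PT were compared with cells given the same dose without Si306, so a ratio in these configurations shows what Si306 added to PT, not what Si306 does alone. GEO lists 6 replicates for each configuration, but the file headers place these 24 scans on 8 arrays, 2 for each configuration, on 2 slides. All arrays with PT alone lay on slide 1 and all arrays with Si306 on slide 2. The header of 2 scans puts them on an array of another label, and these scans were left out, which leaves 22.

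Ligand binding brings receptor chains together, and the phosphorylated tails then recruit adaptors that feed the RAS-ERK and PI3K-AKT pathways and SRC family kinases. In glioblastoma, EGFR and PDGFRA are the receptors most often amplified, while MET, AXL and EPHA2 are known for motility, invasion and resistance to therapy. Ubiquitin ligases such as CBL send active receptors to lysosomes, and sheddases of the ADAM family cut ligands and receptors from the cell surface.

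The probes decide what each ratio measures, and 3 that lie in coding sequence are shown. They are the only EPHA2 probe and the coding probes of MET and ERBB2. With Si306 the MET probe did not share the sign of the brighter probe near the 3′ end of the gene. The ERBB2 probe was not well above background in Cy3 on any array, so no difference in reading is taken from it. All 3 probes are 60 bases long and are written 5′ to 3′ with positions on human build hg17.
EPHA2: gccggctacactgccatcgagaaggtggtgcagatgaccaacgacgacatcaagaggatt
MET: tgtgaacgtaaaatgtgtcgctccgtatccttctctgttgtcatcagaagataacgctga
ERBB2: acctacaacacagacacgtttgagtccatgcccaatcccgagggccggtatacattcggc
The EPHA2 probe (chr1:16197106-16201278, minus strand) crosses a splice junction in the part that encodes the SAM domain near the end of the receptor. The MET probe (chr7:116030024-116030083, plus strand) lies in the last coding exon, and the ERBB2 probe (chr17:35120176-35120235, plus strand) lies in the part that encodes the extracellular domain.

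Of the 10 receptors, 9 had a probe well above background on enough arrays to be tested, and IGF1R had none. Each receptor is represented by its brightest probe unless another is named. The mean log2 ratio (Cy5 over Cy3) of the 2 arrays was tested against 0 with limma, p-values were adjusted over 30141 probes, and a receptor counts as called at an adjusted p below 0.05.

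After 2 Gy PT, 5 of 9 receptors changed, where 60.2% of the 14051 named genes tested did. AXL, MET, EPHA2 and PDGFRB rose, with 35.4% of all genes called higher, and FGFR1 fell, with 24.8% called lower, although its sign turned under median centring in place of loess. After 10 Gy PT, 7 receptors changed (all genes 60.1%): AXL, MET and EPHA2 rose (34.6% called higher) and EGFR, ERBB2, PDGFRB and FGFR1 fell (25.5% called lower), of which EGFR and PDGFRB turned sign under that centring.

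With Si306 added to 2 Gy PT, 8 of the 8 receptors with signal well above background were called. Of genes well above background in both channels 73.1% were called, and of all genes, dim ones included, 67.3%. MET and ERBB2 were higher (37.4% of all genes) and AXL, EPHA2, EGFR, PDGFRA, PDGFRB and FGFR1 lower (29.9% of all genes). Of these, AXL, EGFR, PDGFRB and FGFR1 turned sign under that centring. KIT also passed the threshold there, but on signal that was not well above background in either channel, and it is left out of this count. With Si306 added to 10 Gy PT, 7 of the 9 tested receptors, KIT included, were called (all genes 63.5%). MET and ERBB2 were higher (35.3%) and AXL, EPHA2, EGFR, PDGFRA and FGFR1 lower (28.2%), of which FGFR1 turned sign under median centring. With so many genes called, a call alone says little about a receptor; the sizes say more. The median absolute log2 change of the receptors was 0.13 after 2 Gy PT (all genes 0.13), 0.20 after 10 Gy PT (all genes 0.13), 0.27 with Si306 added to 2 Gy (all genes 0.16) and 0.34 with Si306 added to 10 Gy (all genes 0.14), with KIT included, and 0.21, 0.26, 0.35 and 0.34 without it. By loess no receptor reached a 2-fold change. Of all genes, 0.719% did by loess after 2 Gy PT, 0.84% after 10 Gy PT, 0.641% with Si306 added to 2 Gy and 0.327% with Si306 added to 10 Gy. Under median centring AXL after 10 Gy PT (1.06) and MET with Si306 added to 2 Gy (1.18) did. KIT with Si306 added to 2 Gy read -1.09 there, on signal not well above background, so it measures no fold. With the scanner's own ratio EPHA2 with Si306 added to 2 Gy (-1.02) and PDGFRA with Si306 added to 10 Gy (-1.09) did. The shares of all genes given here hold for loess alone.

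Directions depend in part on the scaling. The ratios were fitted with a loess curve within each scan, and where each scan was instead centred on the median of the probes that passed the filter, the median log2 ratio of all genes moved from 0.03 to 0.14 after 2 Gy PT, from 0.03 to 0.12 after 10 Gy PT, from 0.03 to 0.21 with Si306 added to 2 Gy and from 0.02 to 0.14 with Si306 added to 10 Gy. Under that centring the receptors called were 5 higher and 2 lower after 2 Gy PT, 3 and 2 after 10 Gy PT, 5 and 3 with Si306 added to 2 Gy, and 3 and 5 with Si306 added to 10 Gy (all genes 82.9%, 80.1%, 89.3% and 81.0%), KIT among the lower in each. Probes moved by unlike amounts and in both directions, which the medians of all genes do not show. With Si306 added to 2 Gy, the bright MET probe went from 0.44 to 1.18. The KIT probe, not well above background, went from 0.11 to -1.09. Each reversal is given beside the receptor it concerns. With the background model fitted on all spots, those over debris included, 3, 3, 5 and 4 receptors were called in the 4 configurations (all genes 15.9%, 17.1%, 28.7% and 19.0%).

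**Figure D1:**
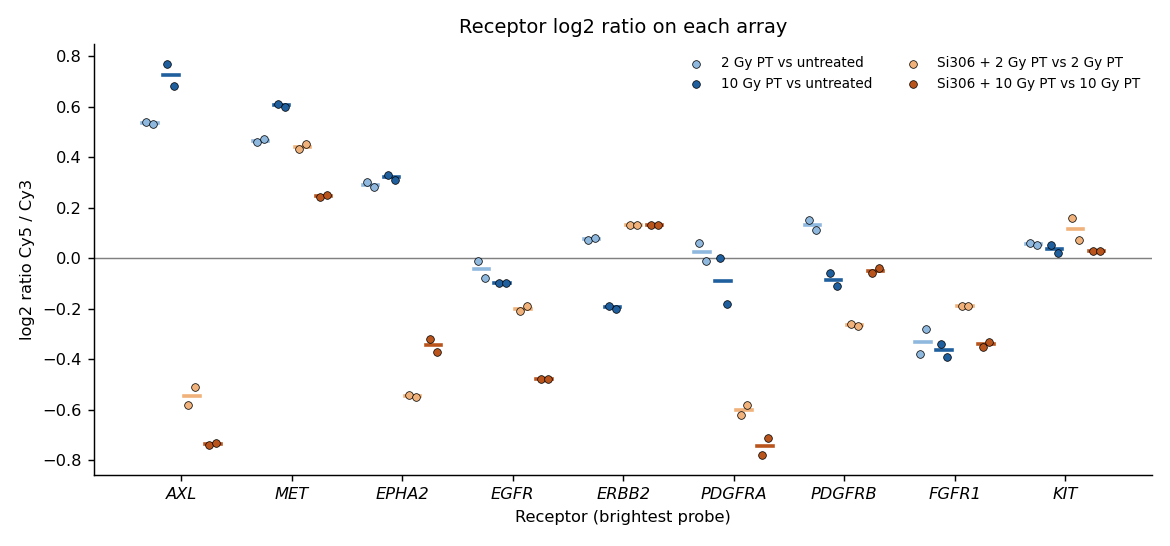
Log2 ratio (Cy5 over Cy3, vertical axis) of the brightest probe of each tested receptor (horizontal axis) on each of the 8 arrays (points) with the mean of each configuration (bars), coloured by configuration. AXL lay between 0.53 and 0.77 on the 4 arrays with PT alone and between -0.74 and -0.51 on the 4 arrays with Si306, where its mean with 2 Gy turns to 0.19 under median centring in place of loess, and KIT stayed near 0 with a sign that turns in all 4 configurations under that centring.

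AXL, the receptor for GAS6 and a member of the TAM family linked to invasion, had the largest change under PT alone among the receptors' brightest probes. Its log2 ratios were 0.54 and 0.53 on the 2 Gy PT arrays and 0.77 and 0.68 on the 10 Gy PT arrays. With Si306 added, they were -0.58 and -0.51 at 2 Gy and -0.74 and -0.73 at 10 Gy. All 4 arrays with PT alone were thus above 0 and all 4 with Si306 below 0, and the share of all genes that do so was not counted. By label the RNA of PT cells enters both sets of ratios, so the opposite signs are not independent readings. The mean log2 change was 0.54 after 2 Gy PT (95% interval 0.46 to 0.62, limma adjusted p = 4.69e-07) and 0.73 after 10 Gy PT (0.65 to 0.80, adjusted p = 4.46e-08). With Si306 it was -0.55 at 2 Gy (-0.62 to -0.47, adjusted p = 3.26e-07), which turned to 0.19 under median centring, just under the median of all genes there, and -0.74 at 10 Gy (-0.82 to -0.66, adjusted p = 6.34e-08), which was -0.25 under it. Among all genes, the absolute change of AXL stood at the 94.5th percentile after 2 Gy PT, the 97.5th after 10 Gy PT, the 94.2nd with Si306 added to 2 Gy and the 98.7th with Si306 added to 10 Gy. The single AXL probe (chr19:46459235-46459294, plus strand) was bright in both channels, with log2 intensities from 12.14 to 13.41 in Cy3.

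MET, the receptor for hepatocyte growth factor, has 3 probes, and the brightest, printed in 10 copies per array (chr7:116032241-116032300, in the 3′ untranslated part), was positive on all 8 arrays. Its log2 ratios were 0.46 and 0.47 after 2 Gy PT and 0.61 and 0.60 after 10 Gy PT. They were 0.43 and 0.45 with Si306 added to 2 Gy and 0.24 and 0.25 with Si306 added to 10 Gy, the lowest of the 4 configurations. By limma, MET rose by this probe in each configuration, by 0.46 (adjusted p = 4.34e-07), 0.61 (5.29e-08), 0.44 (5.04e-07) and 0.25 (4.32e-05), and both arrays had that sign each time.

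The other 2 MET probes shared the rise under PT but not the sign with Si306. The coding probe shown above read 0.24 and 0.32 after 2 Gy PT and 0.40 and 0.32 after 10 Gy PT, but -0.06 and -0.12 with Si306 added to 2 Gy and -0.09 and -0.09 with Si306 added to 10 Gy. Its PT changes were called, 0.28 (adjusted p = 6.99e-05) and 0.36 (8.63e-06), while its Si306 changes of -0.09 and -0.09 missed the threshold (adjusted p = 0.055 and 0.0533). The probe just beyond it (chr7:116030145-116030204) read 0.11 and 0.20 under PT, both called, -0.02 with Si306 added to 2 Gy, which was not called, and -0.19 with Si306 added to 10 Gy, which was (adjusted p = 0.00194). The mean of the 3 probes was 0.11 with Si306 added to 2 Gy and -0.01 with Si306 added to 10 Gy. A rise of MET under PT was therefore seen by all 3 probes, and its direction with Si306 depended on the probe; no direction of the brightest probe turned under median centring, where it read 0.89, 0.96, 1.18 and 0.73.

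EPHA2, an ephrin-A receptor often raised in glioblastoma, followed the same signs as AXL. By the probe shown above, its ratios were 0.30 and 0.28 after 2 Gy PT and 0.33 and 0.31 after 10 Gy PT. With Si306 they were -0.54 and -0.55 at 2 Gy and -0.32 and -0.37 at 10 Gy. Every array was well above background in both channels. EPHA2 rose by 0.29 (limma adjusted p = 1.67e-05) and 0.32 (6.59e-06) under PT, and fell by 0.54 (1.39e-07) and 0.35 (4.28e-06) with Si306, and no sign turned under median centring. The PT changes were 0.02 and 0.12 under median centring, neither above the median of all genes there and neither called, and all 4 missed the threshold where the background model was fitted on all spots (0.03, 0.17, -0.12 and -0.03). Over all alternatives the PT changes ranged from 0.02 to 0.83 at 2 Gy and from 0.12 to 0.77 at 10 Gy. Those with Si306 ranged from -1.02 to -0.12 at 2 Gy and from -0.64 to -0.03 at 10 Gy.

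EGFR, the receptor for EGF and TGF-alpha, was read by 1 probe in 10 copies (chr7:55049050-55049109, plus strand). Its ratios were near 0 after 2 Gy PT, -0.01 and -0.08, and -0.10 on both arrays after 10 Gy PT. With Si306 they were -0.21 and -0.19 at 2 Gy and -0.48 on both arrays at 10 Gy, the lowest of the 4 configurations. The change of -0.05 after 2 Gy PT was not called (adjusted p = 0.251), and that of -0.10 after 10 Gy PT was (adjusted p = 0.0215), although not when either 10 Gy array was left out. Under median centring these signs turned, to 0.22 and 0.13. EGFR fell with Si306 by 0.20 at 2 Gy (adjusted p = 0.000272), a sign that turned to 0.11 under median centring, and by 0.48 at 10 Gy (adjusted p = 5.14e-07), where the change was -0.27 under median centring. With the background model fitted on all spots, the 3 calls of EGFR were lost (-0.07 after 10 Gy PT, -0.09 and -0.11 with Si306).

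ERBB2, the EGFR relative that has no ligand of its own and acts through partners, had changes whose size depended on the scaling. Its probe with 10 copies (chr17:35138355-35138414) read 0.07 and 0.08 after 2 Gy PT, -0.19 and -0.20 after 10 Gy PT, and 0.13 on all 4 arrays with Si306. Only the 10 Gy PT arrays were therefore below 0. The change after 2 Gy PT was not called (0.07, adjusted p = 0.0656), ERBB2 fell by 0.20 after 10 Gy PT (adjusted p = 0.000205), which was -0.01 and not called under median centring, and it rose by 0.13 with Si306 at both doses (adjusted p = 0.00353 and 0.00345). Under median centring ERBB2 was 0.29 after 2 Gy PT and called (adjusted p = 0.000141), and 0.76 and 0.55 with Si306. With the background model fitted on all spots, the 10 Gy PT change of -0.12 and the Si306 change of 0.12 at 2 Gy were not called. The coding probe of ERBB2 shown above was not well above background in Cy3 on any array, nor in Cy5 on the 4 Si306 arrays, so it gives no fold there. By the mean of the probes, this dim one included, the rise with Si306 added to 10 Gy lost its call (0.00, limma adjusted p = 0.941).

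PDGFRA, a receptor for PDGF chains and a marker of the proneural type of glioma, was near background on slide 1, which holds the arrays with PT alone. On slide 2, RNA of cells given PT without Si306 was by label the Cy3 sample, and there it read 8.42 to 8.48. Its brightest probe (chr4:55004917-55004976, plus strand) was well above background in Cy3 on 1 of the 4 arrays with PT alone and on all 4 with Si306. The ratios were 0.06 and -0.01 after 2 Gy PT and 0.00 and -0.18 after 10 Gy PT. With Si306 they were -0.62 and -0.58 at 2 Gy and -0.78 and -0.71 at 10 Gy. All 4 Si306 arrays were thus low, while the arrays with PT alone scattered around 0. PDGFRA fell by 0.60 with Si306 added to 2 Gy (95% interval -0.70 to -0.50, limma adjusted p = 7.9e-07) and by 0.74 with Si306 added to 10 Gy (-0.84 to -0.64, adjusted p = 2.45e-07). The changes after PT were 0.03 (adjusted p = 0.591), which turned to -0.56 under median centring and to -0.01 by the mean of the probes, and -0.09 (adjusted p = 0.115), which was -0.53 and called under median centring (adjusted p = 4.46e-05), with Cy3 well above background on neither array after 2 Gy. With the background model fitted on all spots, the changes with Si306 shrank to -0.21 at 2 Gy (adjusted p = 0.00704) and to -0.10 at 10 Gy, which was not called (adjusted p = 0.154), and the mean of the first 2 probes, of which the second was dim in Cy3, was -0.20 and -0.26.

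The second PDGFRA probe (chr4:55003484-55003543) is placed on the opposite strand from the first. It read 0.29 with Si306 added to 2 Gy and 0.09 with Si306 added to 10 Gy on array 1 of each, and on array 2 of each its Cy3 was not well above background, so no fold is given for it there. With these dim readings included, limma called this probe higher with Si306 at 2 and 10 Gy (adjusted p = 0.00562 and 0.00586). That direction is opposite to the first probe. The third was not well above background on any array and does not bear on the fall. The fall of PDGFRA therefore rests on 1 probe.

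PDGFRB, the receptor for PDGF-B and PDGF-D that marks pericytes, had ratios of 0.15 and 0.11 after 2 Gy PT and -0.06 and -0.11 after 10 Gy PT. With Si306 they were -0.26 and -0.27 at 2 Gy and -0.06 and -0.04 at 10 Gy. Only the 2 Gy PT arrays were above 0 and only the arrays with Si306 and 2 Gy were below -0.2. PDGFRB rose by 0.13 after 2 Gy PT (limma adjusted p = 0.00431), a call lost without array 1 of that configuration (0.11, adjusted p = 0.0579), and fell by 0.08 after 10 Gy PT (adjusted p = 0.0437), which turned to 0.05 under median centring. It fell by 0.27 with Si306 added to 2 Gy (adjusted p = 2.87e-05), which turned to 0.08 under median centring, and was not called with Si306 added to 10 Gy (-0.05, adjusted p = 0.194), where it turned to 0.22. The call after 10 Gy PT was made in 2 of the 8 fits that leave out an array, and both PT calls were lost with the background model fitted on all spots (0.04 and -0.04).

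KIT, the receptor for stem cell factor, was not well above background in Cy3 on any array, and in Cy5 it was on the 4 arrays with PT alone. Its 10 copies gave ratios from 0.02 to 0.16 over the 8 arrays. The log2 values given for KIT are therefore readings against a channel at background and do not measure a fold. With PT limma called neither change (adjusted p = 0.209 and 0.381). With Si306 neither channel was well above background; the call with Si306 added to 2 Gy (adjusted p = 0.013) was lost without array 1 of that configuration, with scale normalization between arrays (0.08), with the scanner's own ratio (0.00) and with the background model fitted on all spots (0.00), and all 4 signs of KIT turned under median centring (-0.49, -0.41, -1.09 and -0.54).

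IGF1R, the receptor for insulin-like growth factors, could not be measured. One of its 2 probes was well above background in Cy5 on a single 10 Gy PT array, the other on none, and neither was in Cy3 on any array.

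FGFR1, a receptor for fibroblast growth factors, has 6 probes whose readings disagreed. The brightest, nearest the 3′ end of the gene (chr8:38389627-38389686, minus strand), read -0.38 and -0.28 after 2 Gy PT, -0.34 and -0.39 after 10 Gy PT, -0.19 on both arrays with Si306 added to 2 Gy, and -0.35 and -0.33 with Si306 added to 10 Gy. All 8 arrays were below 0 by this probe. The changes were -0.33, -0.36, -0.19 and -0.34 (limma adjusted p = 1.53e-05, 5.95e-06, 0.00068 and 1.1e-05), of which the first turned to 0.05, the third to 0.46 and the fourth to 0.10 under median centring, where the second was -0.06 and not called.

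The next 3 FGFR1 probes were higher under PT. The probe farthest toward the 5′ end (chr8:38434130-38434189) changed by 0.29 after 2 Gy PT and 0.52 after 10 Gy PT, the next (chr8:38391296-38391504) by 0.65 and 0.62, and the fourth (chr8:38394554-38394613) by 0.46 and 0.46, each called and each with both arrays above 0. With Si306 these probes read 0.00 and -0.12, -0.39 and -0.25, and -0.23 and -0.16 at 2 and 10 Gy; the value of 0.00 was not called and the other 5 were. The fifth probe was called in no configuration and the sixth was not well above background on any array. The mean over the probes that passed the filter was 0.23 and 0.27 under PT, opposite in sign to the brightest probe, and -0.17 and -0.16 with Si306. The direction of FGFR1 under PT therefore depends on the probe; which transcripts each probe reads was not tested.

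**Figure D2:**
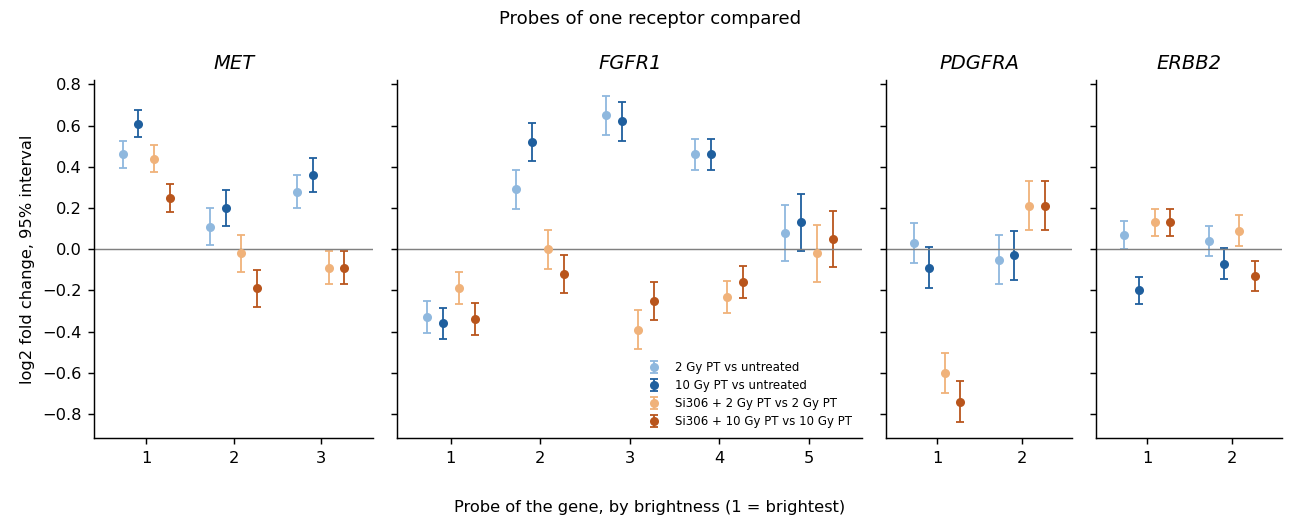
Log2 change with its 95% interval (vertical axis) for each tested probe of MET, FGFR1, PDGFRA and ERBB2, ordered by brightness (horizontal axis), coloured by configuration. The brightest FGFR1 probe read -0.33 and -0.36 under PT where the next 3 read 0.29 to 0.65, and the brightest MET probe read 0.44 and 0.25 with Si306 where the other 2 read -0.19 to -0.02; under median centring the brightest FGFR1 probe turns sign in 3 of 4 configurations.

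The difference between doses was tested within each slide, where a dye effect that is the same on all arrays drops out. With PT alone, 4 of 9 receptors differed between 10 and 2 Gy (all genes 21.5%), AXL and MET as higher at 10 Gy (10.4%) and ERBB2 and PDGFRB as lower (11.1%). With Si306 added, 5 differed (all genes 22.9%), EPHA2 and PDGFRB as higher at 10 Gy (11.8%) and AXL, MET and EGFR as lower (11.2%), of which EPHA2 turned to -0.01 with scale normalization between arrays, where PDGFRB (0.13) and MET (-0.03) were not called either. None differed by 2-fold; of all genes, 0.0285% did with PT alone and 0.142% with Si306. The median absolute difference of the receptors was 0.12 with PT alone (all genes 0.08) and 0.19 with Si306 (all genes 0.09).

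AXL was 0.19 higher at 10 than at 2 Gy with PT alone (limma adjusted p = 0.0236) and 0.19 lower on the log2 scale with Si306 (-0.19, adjusted p = 0.0211). MET did likewise, 0.14 (adjusted p = 0.042) and -0.19 (adjusted p = 0.0111). For MET this rests on the brightest probe: the other 2 probes differed by 0.09 and 0.08 with PT alone and by -0.17 and 0.00 with Si306, none of them called, and the mean of the probes was 0.11 and not called with PT alone (adjusted p = 0.053) and -0.12 with Si306 (adjusted p = 0.0296). PDGFRB had the opposite signs, -0.22 with PT alone (adjusted p = 0.00744) and 0.22 with Si306 (adjusted p = 0.00763). By label the RNA of PT cells is the treated sample without Si306 and the control with it. The opposite dose differences of AXL, MET and PDGFRB are therefore not independent readings.

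ERBB2 differed by dose with PT alone (-0.27, adjusted p = 0.0018) and not detectably with Si306 (0.00, 95% interval -0.09 to 0.10), where the sign turned to -0.20 under median centring. EGFR differed with Si306 (-0.28, adjusted p = 0.00224) and was not called with PT alone (-0.05, interval -0.15 to 0.05). EPHA2 differed with Si306 (0.20, adjusted p = 0.0114), which was -0.01 after scale normalization between arrays. FGFR1 was not called with PT alone by its brightest probe (-0.04), but its probe farthest toward the 5′ end was 0.22 higher at 10 Gy (limma adjusted p = 0.0247). The other tested FGFR1 probes were not called, and the 5′ probe was not refitted on its own under the alternatives. Whether the dose differences with and without Si306 differ from each other was not tested.

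The dose calls of the brightest probes rest on few arrays. With the background model fitted on all spots, none was made (0 with PT alone and 0 with Si306; all genes 1.76% and 1.52%): AXL was 0.17 and -0.15 and MET 0.14 and -0.17 without and with Si306, ERBB2 -0.16 and PDGFRB -0.08 with PT alone, and PDGFRB 0.13, EPHA2 0.09 and EGFR -0.02 with Si306. Under median centring the differences of AXL (0.13) and MET (0.07) with PT alone and of PDGFRB (0.14) with Si306 were not called. With Si306 AXL and MET were each -0.45 there, and FGFR1 (-0.36) and ERBB2 (-0.20) were called. KIT (0.55) was called with Si306 too, on signal not well above background. The calls were 2 with PT alone and 7 with Si306 in all (all genes 12.4% and 52.4%). Only ERBB2 with PT alone and EGFR with Si306 were called in all 8 fits that leave out an array. With PT alone the count was 2 without any 1 of the 4 arrays of that slide. With Si306 it was 2 without array 2 of the 2 Gy configuration or without either array of the 10 Gy configuration. MET with PT alone lost its call in each of the 8 fits.

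**Figure D3:**
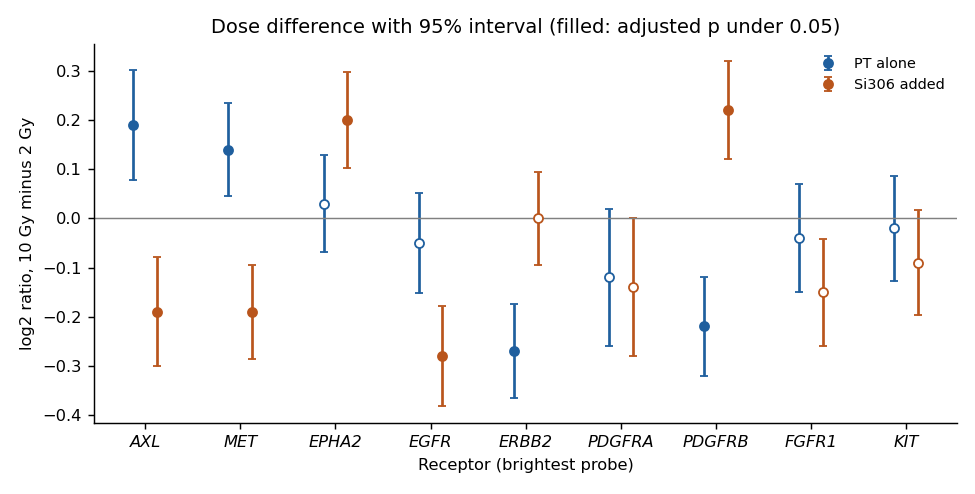
Difference in log2 ratio between 10 Gy and 2 Gy (vertical axis, 95% interval) for each tested receptor (horizontal axis), with PT alone in blue and with Si306 added in orange, filled where the adjusted p was under 0.05. AXL and MET lie above 0 with PT alone (0.19 and 0.14) and below 0 with Si306 (-0.19 and -0.19), and PDGFRB lies the other way (-0.22 and 0.22); EPHA2 with Si306 moves from 0.20 to -0.01 under scale normalization, and under median centring ERBB2 and KIT with Si306 and KIT and PDGFRA with PT alone turn sign.

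RNA with the same label was hybridised on both slides: cells given 2 or 10 Gy PT were the Cy5 sample of slide 1 and the Cy3 sample of slide 2. Apart from ERBB2, PDGFRA and KIT, which was not well above background on slide 2, the normalized log2 levels of this RNA differed between slides by at most 1.14. EGFR read 9.62 on slide 1 and 9.26 on slide 2 for 2 Gy PT, and 9.52 and 9.20 for 10 Gy PT. AXL read 12.87 and 13.41 for 2 Gy PT, and 13.23 and 13.40 for 10 Gy PT.

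ERBB2 and PDGFRA stood apart. ERBB2 read 9.08 on slide 1 and 12.06 on slide 2 for 2 Gy PT, and 8.79 and 12.03 for 10 Gy PT. PDGFRA read 6.41 and 8.47 for 2 Gy PT, and 6.42 and 8.44 for 10 Gy PT, where 1 of the slide 1 readings was not well above background, so no size is given for its gap. RNA of 1 label thus differed between slides by 2.98 and 3.24 for ERBB2 on the log2 scale, gaps larger than any change of a receptor within an array. Of all genes, 30.9% differed by more than 2-fold between the slides at 2 Gy and 30.8% at 10 Gy, and 4.03% and 4.13% by more than 8-fold. On slide 1 ERBB2 read 8.97 to 9.05 in Cy3 and 8.78 to 9.13 in Cy5, and on slide 2 12.02 to 12.08 in Cy3 and 12.15 to 12.21 in Cy5. What made the slides differ, and what this contributes to the Si306 results, was not tested. The ratios of slide 1 and slide 2 are therefore set side by side and not subtracted.

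**Figure D4:**
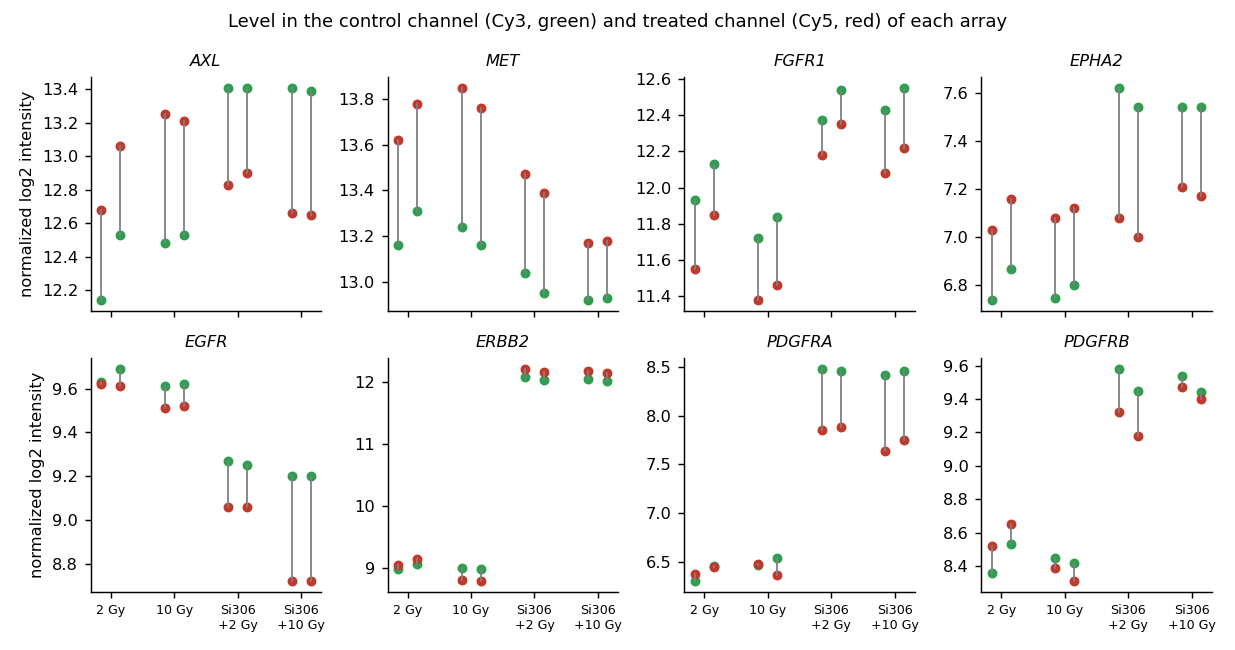
Normalized log2 intensity (vertical axis) in the control channel (Cy3, green) and the treated channel (Cy5, red) of each array, by configuration (horizontal axis), for 8 receptors. ERBB2 lies near 9 on the 4 arrays with PT alone and near 12 on the 4 with Si306 in both channels, and the vertical gap between the channels of an array is the ratio; under median centring that ratio turns sign for AXL and FGFR1 with Si306 and 2 Gy, among others.

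The counts of each list below stand beside these shares of all genes, called higher and lower: 35.4% and 24.8% after 2 Gy PT, 34.6% and 25.5% after 10 Gy PT, 37.4% and 29.9% with Si306 added to 2 Gy, and 35.3% and 28.2% with Si306 added to 10 Gy. Counts under median centring stand beside 52.1% and 30.8%, 50.1% and 30.0%, 55.6% and 33.6%, and 52.2% and 28.8% in the same order. Among the receptors' ligands, 22 of 25 had a tested probe. After 2 Gy PT, 11 rose and 5 fell, and after 10 Gy PT, 13 rose and 5 fell, with median log2 changes of 0.10 and 0.16 (all genes 0.03 and 0.03). With Si306, 10 rose and 4 fell at 2 Gy and 9 rose and 5 fell at 10 Gy, with medians of 0.09 and 0.09 (all genes 0.03 and 0.02). GAS6, the ligand of AXL, rose by 0.75 after 2 Gy PT (0.70 and 0.79 on the arrays, limma adjusted p = 3.37e-07) and by 0.64 after 10 Gy PT (0.54 and 0.75, adjusted p = 7.94e-07), so this ligand and its receptor both rose under PT; with the background model fitted on all spots these GAS6 changes were 0.14 and 0.30 and were not called. GAS6 fell by 0.45 with Si306 added to 2 Gy. It was not called with Si306 added to 10 Gy (0.03), although it was called higher there under median centring (0.25, limma adjusted p = 0.00436). Under median centring, 10 ligands were called higher and 8 lower after 2 Gy PT, 11 and 9 after 10 Gy PT, 11 and 8 with Si306 added to 2 Gy, and 12 and 6 with Si306 added to 10 Gy.

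PDGFC, a PDGFRA ligand, rose by 0.86 after 2 Gy PT (adjusted p = 3.32e-08). KITLG, the ligand of KIT, rose by 0.73 after 10 Gy PT (adjusted p = 3.59e-08) and by 0.65 with Si306 added to 10 Gy (adjusted p = 1.18e-07), although the mean of its probes was -0.06 after 10 Gy PT. With Si306, EFNA1, a ligand of EPHA2, rose by 0.84 at 2 Gy and 0.61 at 10 Gy (adjusted p = 3.13e-08 and 3.51e-07) while EPHA2 fell. EREG, a ligand of EGFR, rose by 0.72 with Si306 added to 2 Gy (adjusted p = 8.22e-08), where EGFR was lower by loess and 0.11 higher under median centring.

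Of 6 genes for sheddases and their inhibitor TIMP3, 3 rose and 2 fell after 2 Gy PT, 3 rose and 1 fell after 10 Gy PT, and 2 rose and 1 fell with Si306 at either dose, with medians of 0.13, 0.14, 0.03 and 0.08. ADAM17, which releases EGFR ligands and also cuts receptors, fell by 0.63 after 10 Gy PT (limma adjusted p = 5.49e-08) and rose by 0.58 and 0.90 with Si306 at 2 and 10 Gy (adjusted p = 1.06e-07 and 1.14e-08), with the same sign on both arrays each time. It also fell by 0.28 after 2 Gy PT (limma adjusted p = 2.63e-05), which turned to 0.08 under median centring. TIMP3 rose by 0.61 after 2 Gy PT, and ADAM15 rose by 0.58 and 0.60 under PT. ADAM9 fell by 0.19 and 0.38 with Si306, of which the first turned to 0.33 under median centring and the second was -0.03 there. Under that centring 5 of these genes were called higher and 0 lower after 2 Gy PT, 5 and 1 after 10 Gy PT, and 4 and 2 or 3 and 1 with Si306 at 2 or 10 Gy.

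Other receptor tyrosine kinases, 30 tested of 40, had medians near 0 by loess and below 0 under median centring. After 2 Gy PT, 10 rose and 4 fell, and after 10 Gy PT, 11 rose and 4 fell, with medians of 0.03 and 0.06, which turned to -0.31 and -0.33 under median centring. With Si306, 8 rose and 6 fell at 2 Gy and 9 rose and 5 fell at 10 Gy, with medians of 0.03 and 0.04, but under median centring the balance of this group turned in all 4: 4 were called higher and 20 lower after 2 Gy PT, 6 and 21 after 10 Gy PT, 7 and 18 with Si306 added to 2 Gy, and 9 and 13 with Si306 added to 10 Gy, with medians of -0.38 and -0.08 with Si306. The collagen receptors went opposite ways under PT: DDR1 rose by 0.62 after 2 Gy (limma adjusted p = 1.21e-07), and DDR2 fell by 0.46 and 0.63 after 2 and 10 Gy (adjusted p = 1.05e-06 and 9.21e-08). With Si306, DDR2 rose by 0.09 and 0.17, signs that turned under median centring (-0.50 and -0.09). RYK, a Wnt receptor, fell by 0.52 after 10 Gy PT. With Si306, EPHB2 fell by 0.51 and MST1R, the closest relative of MET, by 0.50 at 2 Gy, and LTK rose by 0.62 and TYRO3, a TAM receptor like AXL, by 0.30 at 10 Gy; DDR2 after 2 Gy PT (-0.11), EPHB2 (-0.15) and MST1R (-0.07) were not called under median centring. MST1R rose by 0.13 after 2 Gy PT, which turned to -0.49 under median centring.

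Adaptors and proximal enzymes, which carry the signal from the receptor tail, had 23 tested genes of 25. Their counts were balanced, 8 higher and 8 lower after 2 Gy PT, 9 and 9 after 10 Gy PT, 7 and 8 with Si306 added to 2 Gy, and 6 and 8 with Si306 added to 10 Gy, with medians of 0.04, 0.01, -0.04 and -0.03, whereas under median centring 13 and 7, 11 and 5, 11 and 7, and 12 and 8 were called and the medians with Si306 turned to 0.06 and 0.11. PTPN11, the phosphatase SHP2 that most of these receptors use to reach RAS, rose by 0.64 and 0.50 after 2 and 10 Gy PT (limma adjusted p = 6.31e-08 and 2.94e-07) and fell by 0.72 and 0.71 with Si306 (adjusted p = 2.52e-08 and 4.22e-08). Its change with Si306 added to 2 Gy turned to 0.06 under median centring, and the mean of its probes after 2 Gy PT was 0.07 and not called. PIK3CA, the catalytic subunit of PI3K, fell by 0.56 and 0.57 under PT. PLCG2, a phospholipase, rose by 0.55 and 0.74 with Si306.

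Attenuators and endocytic sorting genes, which end receptor signalling, had 25 tested of 26. Under PT, 9 rose and 10 fell at 2 Gy and 7 rose and 13 fell at 10 Gy, with medians of -0.04 and -0.10, which turned to 0.13 and 0.08 under median centring. With Si306, 12 rose and 8 fell at 2 Gy and 9 rose and 9 fell at 10 Gy, with medians of 0.10 and 0.00, but under median centring more were called higher than lower in all 4: 13 were higher and 6 lower after 2 Gy PT, 12 and 6 after 10 Gy PT, 19 and 1 with Si306 added to 2 Gy, and 16 and 1 with Si306 added to 10 Gy. CBL, the ubiquitin ligase that sends EGFR and MET to lysosomes, fell by 0.69 after 10 Gy PT (limma adjusted p = 5.44e-08), SH3KBP1, its partner in endocytosis, by 0.68 after 2 Gy PT (adjusted p = 5.89e-08), and LRIG2 by 0.64 and 0.53 after 2 and 10 Gy PT. CBL was also called lower after 2 Gy PT (-0.32) and with Si306 added to 2 Gy (-0.18), values that turned to 0.04 and 0.41 under median centring. SPRY2, an inhibitor of RAS-ERK signalling, rose by 0.59 with Si306 added to 2 Gy, CBLB, a relative of CBL, by 0.49 with Si306 added to 10 Gy, and TSG101, part of the sorting machinery of endosomes, by 0.48 and 0.41 with Si306. Some of these genes were called the other way elsewhere: SH3KBP1 rose by 0.14 and 0.25 and LRIG2 by 0.41 and 0.32 with Si306, while CBLB fell by 0.31 and 0.27 and SPRY2 by 0.11 and 0.12 under PT, 4 falls that turned under median centring (0.04 and 0.02, 0.25 and 0.18).

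IGF-binding proteins, which hold the ligands of IGF1R in the medium, were all tested, 7 of 7, although IGF1R itself was not measurable. After 2 Gy PT, 4 rose and 2 fell, after 10 Gy PT, 2 and 2, with Si306 added to 2 Gy, 4 and 2, and with Si306 added to 10 Gy, 2 and 3, with medians of 0.16, -0.03, 0.14 and 0.06, and under median centring 5 and 1, 4 and 1, 5 and 2, and 5 and 2, with the second median turning to 0.25. IGFBP6 rose by 0.40 after 2 Gy PT and by 0.59 and 0.77 with Si306, and IGFBP4 rose by 0.48 and 0.49 under PT and by 0.16 with Si306 added to 10 Gy. IGFBP3 fell by 0.40 after both 2 and 10 Gy PT (limma adjusted p = 1.4e-06 and 1.12e-06). These values were 0.08, with the sign turned, and 0.00 under median centring. With Si306 added to 2 Gy it rose by 0.57 (adjusted p = 9.24e-08).

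Genes induced by ERK, an output shared by the receptors, were tested for 11 of 11. After 2 Gy PT, 9 rose and 1 fell, with a median of 0.25, and after 10 Gy PT, 6 rose and 2 fell, with a median of 0.10. With Si306, 4 rose and 5 fell at 2 Gy and 2 rose and 4 fell at 10 Gy, with medians of -0.01 and -0.01, counts that turned under median centring to 9 higher and 2 lower at 2 Gy and 8 and 0 at 10 Gy, while those under PT were 9 and 0 at each dose. EGR1, an immediate early transcription factor, rose by 1.15 after 2 Gy PT (1.14 and 1.16 on the arrays, limma adjusted p = 3.19e-09) and by 0.60 and 0.38 with Si306, and it fell by 0.23 after 10 Gy PT (adjusted p = 0.000346), which turned to 0.05 under median centring; its difference between the doses of PT was -1.38. CCND1, the cyclin of G1, rose by 0.58 after 2 Gy PT and by 0.58 after 10 Gy PT and fell by 0.23 and 0.37 with Si306 (adjusted p = 8.96e-05 and 2.62e-06), values that were 0.30, with the sign turned, and -0.01 under median centring. IER3 rose by 0.48 after 10 Gy PT. With Si306, ETV4 fell by 0.32 at 2 Gy and PHLDA1 by 0.43 at 10 Gy, which turned to 0.13 under median centring. ETV4 rose by 0.25 and 0.35 under PT, of which the first turned to -0.04 under median centring.

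Fewer list genes were called with the background model fitted on all spots, where the shares of all genes called higher and lower were 11% and 4.92% after 2 Gy PT, 10.8% and 6.25% after 10 Gy PT, 16.4% and 12.2% with Si306 added to 2 Gy, and 11.7% and 7.28% with Si306 added to 10 Gy. In that order, the counts called higher and lower were 3 and 1, 5 and 1, 5 and 0, and 4 and 0 for ligands, 1 and 0, 1 and 1, 2 and 0, and 1 and 0 for sheddases, and 3 and 0, 3 and 1, 2 and 3, and 0 and 0 for other receptor tyrosine kinases. They were 3 and 2, 2 and 1, 2 and 1, and 1 and 1 for adaptors, 4 and 1, 1 and 3, 4 and 2, and 4 and 3 for attenuators, and 2 and 2, 1 and 2, 3 and 2, and 2 and 2 for IGF-binding proteins. For ERK output genes they were 4 and 1, 2 and 0, 3 and 2, and 2 and 3, and for the p53 targets described below 2 and 0, 5 and 0, 2 and 0, and 2 and 0. Of the 71 changes named for their size, or as those of CDKN1A and MDM2, none changed sign there but 28 lost their call, among them those of ADAM15, PIK3CA, LRIG2 and IGFBP4 under PT and of PLCG2, KITLG, LTK and TYRO3 with Si306 added to 10 Gy. Lost as well were the calls given above in which GAS6 fell with Si306 added to 2 Gy and DDR2, LRIG2 and, at 2 Gy, SH3KBP1 rose with Si306. So were those in which MST1R and ETV4 rose under PT, CBLB and SPRY2 fell under PT, EGR1 fell after 10 Gy PT and CCND1 fell with Si306. The falls of ADAM17 and CBL after 2 Gy PT and of CBL with Si306 added to 2 Gy lost their calls too.

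The genes whose ratios over the 8 arrays lay nearest to those of a receptor, by Euclidean distance, were found for the 3 receptors with the largest changes. For AXL they were HNRPA0 (distance 0.34), FGFRL1 (0.384), a receptor of the FGF family without a kinase, and PTPN11 (0.443). For MET, by its brightest probe, they were SOCS5 (0.144), PRCP (0.19) and MIF (0.216). For PDGFRA they were HIST1H2AH (0.122), L3MBTL (0.194) and HIST1H2AK (0.221).

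Targets of p53 served as a check of irradiation in the ratios of PT alone against untreated cells. The ratios with Si306 cannot serve as that check, because by label both channels hold cells given the same dose. After 2 Gy PT, 5 of 6 rose and 1 fell, after 10 Gy PT all 6 rose, 4 of them by over 2-fold, and with Si306 5 rose and none fell at either dose, with medians of 0.34, 1.17, 0.22 and 0.19, and under median centring 5 rose and 0 fell, 6 and 0, 3 and 2, and 3 and 1. CDKN1A, the cell cycle inhibitor p21, rose by 0.38 after 2 Gy PT and 1.19 after 10 Gy PT (limma adjusted p = 1.8e-06 and 3.73e-10), and by 0.21 and 0.22 with Si306. BTG2 rose by 0.53 and 1.64 under PT, GDF15 by 1.26 after 10 Gy PT and by 0.77 and 0.67 with Si306, and FDXR by 0.59 after 2 Gy PT and 0.29 with Si306 added to 10 Gy. MDM2, the negative regulator of p53, fell by 0.21 after 2 Gy PT and rose by 0.10 after 10 Gy PT, a call lost without either 10 Gy PT array (0.07 and 0.14), and rose by 0.23 and 0.13 with Si306, where both signs turned under median centring (-0.24 and -0.17).

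Markers of the line and of other cells were read by detection. Of 8 glioma line markers, GFAP, NES, VIM, CD44 and TNC were well above background in Cy3 on all 8 arrays, SOX2 was on 4, OLIG2 was on 3, and S100B was on none. Of the blood cell markers, CD14 was on all 8, CD3E was on 5, LYZ was on 4, and PTPRC was on none. With Si306 added to 2 and 10 Gy, LYZ read -0.97 and -0.94, while CD3E read 0.12 and 0.20 and CD14 0.11 and 0.11. Of the erythroid markers, ALAS2 was on 5, and HBB and HBG1 were on none. None of 3 endothelial markers was on all, PECAM1 was on 4, VWF was on 3, and CDH5 was on none. PECAM1 read 0.28 and 0.27 with Si306 added to 2 and 10 Gy.

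The p-values measure only the spread between arrays, and the number of arrays limits the precision. GEO labels the scans as biological replicates, but the headers place them as repeated scans of 2 arrays for each configuration. Neither shows that the 2 arrays of a configuration hold RNA of separate cultures. No dyes were swapped, so a dye effect of a probe may be part of any ratio against 0. Slide and Si306 cannot be told apart between the configurations with PT alone and those with Si306. By label these configurations also share the RNA of 2 and 10 Gy PT cells. Opposite signs in these comparisons, of AXL and EPHA2 and of list genes such as PTPN11, CCND1 and ADAM17, are therefore not independent readings. Nor are the opposite dose differences of AXL, MET and PDGFRB. The share of all genes with opposite signs was not counted.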

How the data were processed

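The authors deposited Agilent Feature Extraction 9.5.3.1 scanner files, whose red and green signals are linear intensity and whose ratio column is the log10 of Cy5 over Cy3. The authors' deposited value table holds that log10 ratio, dye-normalized by the scanner software and rounded; it differed from the scanner files by at most 0.005, the median of each of its 24 columns was 0, and its scale and direction are therefore known, while any centring beyond the scanner's was not seen. The 10 receptors and all gene lists were chosen with earlier results of these data known. GEO labels 6 biological replicates a configuration; by the file headers these are repeated scans of 2 arrays, and 2 scans whose header places them on an array of another label were dropped. Mean signals and median local backgrounds of each scan were corrected with normexp (offset 50) after spots over debris were left out. These were spots whose local background was over 2 times the scan's median in either channel, at most 98 a scan, with no receptor spot among them; they had distorted the normexp fit, and this choice was made after seeing the data. Ratios were normalized by loess within each scan, control and outlier spots were left out, and spots of a probe and then scans of an array were averaged. A probe was tested if well above background in at least 1 channel, over at least 0.5 of its spots and scans, on both arrays of any configuration, which kept 30141 of 41000 probes. Gene names were matched to RefSeq symbols or synonyms, 16967 of 30982. The 4 configurations were fitted together in limma 3.58.1 (R 4.3.3, data.table version 1.17.8), with Benjamini-Hochberg adjustment over all kept probes and a prior of 6.48 degrees of freedom. The fit was tested on simulated data. A gene is represented by its brightest probe. From each list, and for each configuration, the text names the 2 called genes with the largest change, the same sign on both arrays and a control channel well above background, plus CDKN1A and MDM2. Lists were ligands, other receptor tyrosine kinases, adaptors, attenuators, IGF-binding proteins, sheddases, ERK output genes, p53 targets and cell type markers. Alternatives were no background correction, the scanner's ratio, median centring, scale normalization, other detection filters, 1 scan an array, all 24 scans by label with and without a replicate block, leaving out each array, the mean of a gene's probes, removal of a GC curve, and the deposited values; normexp on all spots and fits within each slide were added after seeing the data.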

Additional observations from a re-analysis of the deposited data

Results flagged for a closer look

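A test of the difference between 10 and 2 Gy, within a slide, singled out 9 results. With PT alone, the log2 ratio against untreated cells was lower at 10 than at 2 Gy for ERBB2 (-0.27) and PDGFRB (-0.22), and higher for MET (0.14) and AXL (0.19). With Si306 added, the ratio against cells given the same dose without Si306 was lower at 10 than at 2 Gy for EGFR (-0.28), MET (-0.19) and AXL (-0.19), and higher for PDGFRB (0.22) and EPHA2 (0.20). With the background model fitted on all spots, none of the 9 was called. Under median centring AXL (0.13) and MET (0.07) with PT alone and PDGFRB (0.14) with Si306 were not called. EPHA2 with Si306 turned to -0.01 with scale normalization between arrays. The cause of these differences was not tested.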

How the results depend on the processing

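Of 132 counts of called receptors recomputed under an alternative, with KIT counted where it passed the threshold, 115 stayed within 1.5 times the reported count, and of 1179 recomputed receptor changes, 1028 kept direction and side of the threshold, 79 lost the call, 30 gained one and 42 changed sign; of 1559 recomputed changes of named list genes, 1499 kept both, 54 lost the call and 6 changed sign. Where the background model was fitted on all spots, an alternative chosen after seeing the data, 3 receptors were called after 2 Gy PT (all genes 15.9%), 3 after 10 Gy PT (17.1%), 5 with Si306 and 2 Gy (28.7%), 4 with Si306 and 10 Gy (19.0%), and 0 for either dose difference (all genes 1.76% and 1.52%); KIT with Si306 and 10 Gy and PDGFRA after 2 Gy PT were then 0.00, KIT's dose difference with PT alone was 0.02 and PDGFRA's with Si306 was 0.11. The dose difference with PT alone was called for 2 receptors under median centring (all genes 12.4%) and 2 with 1 scan for each array (16.6%). With all 24 scans by label, the dose difference with Si306 was called for 8 (all genes 47.7%), and for 8 with the replicate number as a block (47.4%); the numbers do not pair the samples, since over 36 pairs of scans with the same number the deviations correlated with a median of 1e-04 (-0.234 to 0.22, 2 over 0.1). Without 1 array, counts ranged from 4 to 5 after 2 Gy PT (all genes 50.4% to 59.6%), 5 to 7 after 10 Gy PT (45.9% to 62.0%), 8 to 9 with Si306 and 2 Gy (53.2% to 69.1%), 7 to 7 with Si306 and 10 Gy (48.3% to 65.6%), 2 to 3 for the dose difference with PT alone (10.7% to 20.2%) and 2 to 6 with Si306 (10.3% to 25.6%); the lone array left in a configuration is assumed to vary like the others. These changes had both signs without 1 array: PDGFRA after 2 Gy PT (-0.01 to 0.06) and 10 Gy PT (-0.18 to 0.00), and the dose differences of FGFR1 with PT alone (-0.09 to 0.01) and ERBB2 with Si306 (0.00 to 0.01). Median centring turned EGFR (0.22 after 2 Gy PT, 0.13 after 10 Gy PT, 0.11 with Si306 and 2 Gy), AXL (0.19 with Si306 and 2 Gy), FGFR1 (0.05 after 2 Gy PT, 0.46 and 0.10 with Si306), PDGFRA (-0.56 after 2 Gy PT), PDGFRB (0.05 after 10 Gy PT, 0.08 and 0.22 with Si306) and KIT (-0.49, -0.41, -1.09 and -0.54), the dose differences of PDGFRA (0.03) and KIT (0.08) with PT alone and of ERBB2 (-0.20) and KIT (0.55) with Si306, and, with Si306, ADAM9 (0.33), PTPN11 (0.06), MDM2 (-0.24 and -0.17) and PHLDA1 (0.13). The mean of a gene's probes turned FGFR1 under PT (0.23 and 0.27) and its dose differences (0.04 and 0.00), MET with Si306 and 10 Gy (-0.01), PDGFRA after 2 Gy PT (-0.01), ERBB2's dose difference with Si306 (-0.10) and KITLG after 10 Gy PT (-0.06). The scanner's ratio and the value table turned the dose differences of EPHA2 with PT alone (-0.05) and KIT with Si306 (0.03), scale normalization that of EPHA2 with Si306 (-0.01), 1 scan for each array that of KIT with PT alone (0.02), and removal of a GC curve turned ERBB2 after 2 Gy PT (-0.01) and its dose difference with Si306 (-0.01). The cause was not tested. Within each slide alone, added after seeing the data, 5, 6, 9 and 7 receptors were called in the 4 configurations (all genes 57.5%, 57.6%, 68.4% and 64.6%) and 3 and 6 for the dose differences (16.7% and 23.1%). Signal over background limits PDGFRA on the slide 1 arrays, and KIT and IGF1R throughout.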
